A study of Homo sapiens with 2 samples.

Results

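The genes of the integrin and laminin subunits were compared between A549 cells that overexpress MYOCD (group MYOCD) and wild-type A549 cells (group WT). The A549 line, long established, comes from a human lung adenocarcinoma. The product of MYOCD, myocardin, works with the transcription factor SRF to switch on muscle genes. Both groups were grown in the same serum-containing medium with no drug named in the labels, and total RNA was sequenced. The labels give 1 library in each group and do not say how MYOCD was introduced or whether the cells are 1 clone, so no value below has a replicate error, no test was possible, and differences are described by size. The subunits were taken by symbol: genes named ITGA or ITGB with a number or with the established letter codes, and genes named LAMA, LAMB or LAMC with a number. Described here are 37 such genes among the 56255 symbols of the table, 26 integrin and 11 laminin subunits, each on a single row.

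Integrins are receptors of an alpha and a beta subunit that span the membrane and tie the matrix outside the cell to actin or keratin filaments inside it. The alpha subunit largely sets the ligand: collagen, laminin, proteins with the sequence RGD such as fibronectin, or counter-receptors on other cells. Laminins are cross-shaped trimers of 1 alpha, 1 beta and 1 gamma chain, numbered by those chains, and are the main adhesive proteins of the basement membrane on which lung epithelium sits. The integrin of alpha V and beta 6 is an epithelial receptor known for releasing TGF-beta from its latent form.

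Values are RPKM, reads scaled by the size of each library and by gene length, so levels can be set beside each other between genes. MYOCD itself stood at 48.6 RPKM in MYOCD and 0.304 RPKM in WT, in the direction of the labels. All 5 epithelial markers reached 1 RPKM in MYOCD and 4 of 5 in WT, and they summed to 2234 RPKM in MYOCD and 3209 RPKM in WT. Most of that was the keratin genes KRT8, at 1059 RPKM in MYOCD and 1523 RPKM in WT, and KRT18, at 1134 and 1647 RPKM. The remaining epithelial markers stood above their WT values. CDH1 had 35.8 RPKM in MYOCD and 35.0 RPKM in WT, KRT19 had 3.24 and 2.94 RPKM, and EPCAM had 2.57 and 0.889 RPKM. The part of these marker differences in the results below was not tested. Of 5 alveolar markers only AGER reached 1 RPKM in either library. The surfactant gene SFTPC was listed at 0 in both, so the defining marker of alveolar type 2 cells was not detected in these cultures. Summed over their lists, the markers of other cell types stood at 2.06 and 3.09 RPKM for leukocytes, 0.139 and 0.00689 RPKM for endothelial cells, 1.52 and 2.65 RPKM for fibroblasts and 3.14 and 2.92 RPKM for platelets in MYOCD and WT. The pan-leukocyte gene PTPRC, the endothelial gene CDH5, the fibroblast gene DCN and the platelet gene PF4 were each listed at 0 in both. Other markers of these lists were detected. The leukocyte marker CD14 stood at 1.17 RPKM in MYOCD and 2.31 RPKM in WT. The fibroblast marker THY1 stood at 0.959 and 1.91 RPKM, and the platelet marker GP1BA at 2.94 and 2.92 RPKM. Read counts were not in the table. For gene models with 1 transcript, RPKM was multiplied by length in kb. The median of such values between 0.03 and 0.09 was taken as the step of 1 read. A median within a set window does not show that the values cluster. The step was 1.14 times as large in MYOCD as in WT, as for a slightly shallower library. It is used below only as a rough guide to how many reads lay behind a value.

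Most subunits of both families lay under 2-fold of the WT level, and 4 stood higher. Changes are given as log2((MYOCD RPKM + 0.5)/(WT RPKM + 0.5)), which understates the change of low values, and a gene was called higher or lower at 2-fold or more if it had at least 1 RPKM in at least 1 library. Of the 37 subunits 26 passed that filter, 4 of them were higher and 0 were lower, and 22 lay under 2-fold. Over all genes tested by this rule (17350) the shares were 5.42% higher and 6.35% lower. In such bulk RNA, more cells with a transcript and more transcript per cell cannot be told apart. Among protein-coding genes with a model of at least 4000 nt, a length that every subunit reaches, 2.94% were higher and 2.71% lower. Calls also depended on level. With 1 to under 10 RPKM in the higher library, 11.0% of protein-coding genes were called in either direction, and 3 of 11 subunits were. At 10 RPKM and over, 3.28% of protein-coding genes were called and 1 of 15 subunits. The 4 higher subunits were the integrin genes ITGB6 and ITGB3 and the laminin genes LAMA2 and LAMA4. ITGB3, LAMA2 and LAMA4 passed the filter through the MYOCD library alone, as did ITGA1, while LAMC3 passed through WT alone. With at least 1 RPKM asked of both libraries, ITGB6 was the 1 higher among 21 subunits, where 2.42% of 14784 genes were higher and 2.4% lower.

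**Figure D1:**
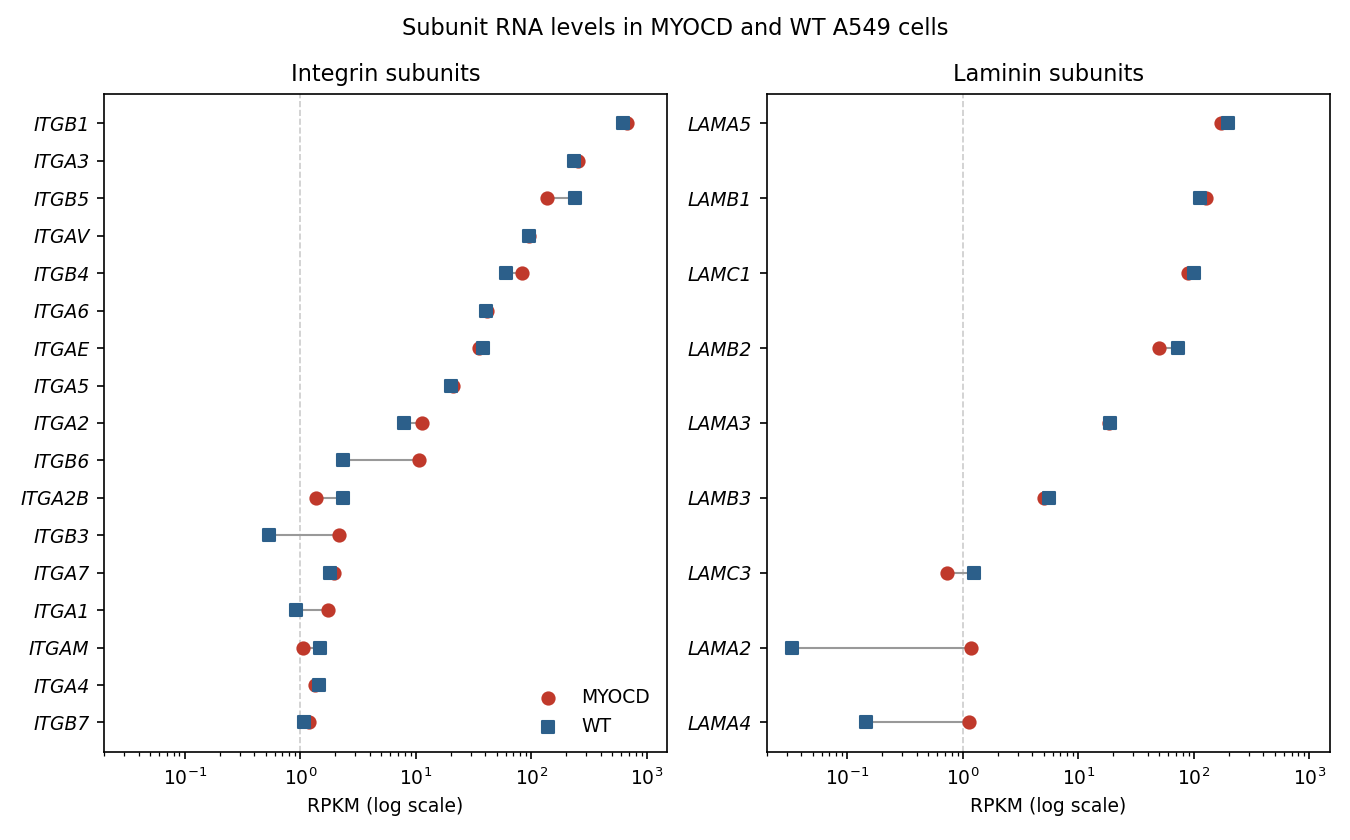
RPKM on a log axis of the 17 integrin (left) and 9 laminin (right) subunits with at least 1 RPKM in at least 1 library, ordered by the higher value; circles are the MYOCD library, squares the WT library, and the dashed line marks 1 RPKM. The longest lines belong to LAMA2, LAMA4, ITGB6 and ITGB3, and among the abundant subunits ITGB5 and LAMB2 show a visible gap with WT higher and ITGB4 one with MYOCD higher.

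Integrin RNA as a whole was level between the libraries. The RPKM of all 26 subunits summed to 1367 in MYOCD and 1370 in WT, a ratio of 0.998, and without ITGB1, the most abundant, to 700 and 748. The 17 subunits past the filter had a median log2 change of 0.08, where the median of all genes was -0.00. The 11 laminin genes summed to 466 RPKM in MYOCD and 513 in WT, a ratio of 0.908, and to 294 and 314 RPKM without LAMA5. The 9 laminin genes past the filter had a median of -0.12.

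The alpha subunits held 0 calls among 11 past the filter, with log2 changes between -0.59 and 0.65. ITGA3, the alpha subunit of the main epithelial laminin receptor, was by far the most abundant, with 253 RPKM in MYOCD and 235 RPKM in WT, or 54.3% and 52.6% of all alpha subunit RPKM. ITGAV, the partner of several beta subunits in RGD-binding receptors, came next with 95.8 RPKM in MYOCD and 94.8 RPKM in WT. The laminin receptor subunit ITGA6 had 41.0 RPKM in MYOCD and 40.5 RPKM in WT. The fibronectin receptor subunit ITGA5 had 21.1 RPKM in MYOCD and 20.1 RPKM in WT. These 4 genes, which carry most of the alpha subunit RNA, lay within 0.11 of 0 on the log2 scale.

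The collagen-binding alpha subunits ITGA2 and ITGA1 stood above their WT levels by less than 2-fold. ITGA2 stood at 11.3 RPKM in MYOCD and 7.83 RPKM in WT (log2 change of 0.50) and ITGA1 at 1.74 and 0.923 RPKM (0.65). Their genes are neighbours on chromosome 5. The exons of ITGA1 overlap those of PELO on the same strand over 2.56% of its model, and PELO stood at 10.6 RPKM in MYOCD and 12.2 RPKM in WT. ITGA10 and ITGA11, the other collagen-binding subunits, stayed under 0.3 RPKM in both libraries.

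The alpha subunits best known from blood cells were low or absent apart from ITGAE. ITGAE, which pairs with beta 7 in T cells that bind E-cadherin, stood at 35.3 RPKM in MYOCD and 38.1 RPKM in WT, while its partner gene ITGB7 stood at 1.20 and 1.09 RPKM. ITGB7 is uncertain, since 42.1% of its model overlaps exons of ZNF740 on the opposite strand and the sources used here do not say whether counting used strand. ZNF740 stood at 18.3 RPKM in MYOCD and 11.3 RPKM in WT. The exons of HASPIN overlap 6.41% of the ITGAE model on the opposite strand. The platelet subunit ITGA2B had 1.38 RPKM in MYOCD and 2.33 RPKM in WT, ITGAM had 1.05 and 1.47 RPKM, and ITGA4, of lymphocytes and migrating cells, had 1.34 and 1.44 RPKM. The laminin-binding ITGA7, known from muscle, had 1.94 RPKM in MYOCD and 1.80 RPKM in WT.

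Among the beta subunits, ITGB1, the common partner of most alpha subunits, stood at 666 RPKM in MYOCD and 622 RPKM in WT, or 74.0% and 67.3% of all beta subunit RPKM. ITGB4, which joins alpha 6 in the hemidesmosome, the keratin-linked adhesion of epithelium, stood at 82.3 RPKM in MYOCD and 60.5 RPKM in WT (log2 change of 0.44). ITGB5, a vitronectin receptor subunit, went the other way, with 137 RPKM in MYOCD and 236 RPKM in WT. Its log2 change of -0.78 is under 2-fold and was the lowest of the 26 subunits past the filter. Its rank was looked up after this value was seen. Among the 902 protein-coding genes with a mean of at least 100 RPKM, 15, or 1.66%, were as low or lower, ITGB5 included. ITGB5 (ENSG00000082781) lies at chr3:124761948-124901418 on the minus strand (GRCh38).

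ITGB6 showed the largest log2 change of the subunits with 0.5 RPKM added, although with 0.1 RPKM added LAMA2 (3.25) and LAMA4 (2.33) stood above it (2.13). ITGB6 (ENSG00000115221), at chr2:160099666-160200313 on the minus strand, stood at 10.6 RPKM in MYOCD and 2.34 RPKM in WT, a ratio of 4.53 and a log2 change of 1.97. By the rough guide above, about 736 reads in MYOCD and 185 in WT would lie behind these values. The call held under each of the 10 alternative settings, with log2 changes from 1.80 to 2.13. A further transcript model, AC092153.1, overlaps 20.6% of the ITGB6 model on the same strand and has no row in the table used here.

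The bases before the start of ITGB6 are shown because they hold a CArG box, the DNA element to which SRF binds and through which myocardin acts on its known targets. RefSeq windows of 250 bases before to 50 after a gene's start (GRCh38.p14) were found for 26 of the 37 subunits, 33 windows in all, and were searched on both strands for the CArG box, for CATTCC (bound by TEAD factors), for TGANTCA (bound by AP-1) and for TATAAA. The sequences below run 5′ to 3′ on the gene's own strand and end at the base before the first annotated start, ITGB6 at chr2:160200314-160200522 and LAMA2 at chr6:128882888-128883137. Capitals mark the matches, the CArG box in ITGB6 and CATTCC, read on the other strand, in LAMA2.
ITGB6: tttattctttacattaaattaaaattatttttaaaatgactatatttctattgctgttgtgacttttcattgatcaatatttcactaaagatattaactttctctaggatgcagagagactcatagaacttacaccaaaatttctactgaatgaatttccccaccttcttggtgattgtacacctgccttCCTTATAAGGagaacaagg
LAMA2: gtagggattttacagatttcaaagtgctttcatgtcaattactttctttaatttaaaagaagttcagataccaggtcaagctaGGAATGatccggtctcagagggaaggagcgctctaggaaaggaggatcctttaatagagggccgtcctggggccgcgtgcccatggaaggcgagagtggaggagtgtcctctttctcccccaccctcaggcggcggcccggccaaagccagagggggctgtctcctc

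The match in ITGB6 reads CCTTATAAGG, begins 60 bases before the RefSeq start and 19 bases before the outermost GENCODE start, and was the only CArG box in the 33 subunit windows. Over all 35116 RefSeq windows 1.29% held one. By gene, 1.89% of the 264 genes higher by 2-fold with a window held one, 1.34% of the 298 lower and 1.44% of the 9972 past the filter, so a CArG box in the window was rare among higher genes too. CATTCC was found in 4 subunit windows, those of LAMA2, ITGB1, ITGA5 and ITGA10, against 14.0% of all windows. TGANTCA was found in 3 and TATAAA in 2, against 7.71% and 11.5% of all windows. By gene, CATTCC was in the windows of 17.0% of higher genes, 21.8% of lower genes and 15.0% of genes past the filter. For TGANTCA these shares were 12.9%, 9.40% and 7.10%, and for TATAAA 14.4%, 12.8% and 8.19%. No match overlapped a match of another motif. The windows of ITGB6 and LAMA2 are those of members that were higher, and the presence of these letters is a description, with no measure of binding. Of the 4 subunits called higher, ITGB3 had no window. The RefSeq start of LAMA4 lies 372 bases inside the outermost GENCODE start, so no bases before that start were in its window. The window of LAMA4 held no match to these motifs.

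ITGB3 was the second integrin gene called higher. ITGB3 (ENSG00000259207), at chr17:47253846-47311816 on the plus strand, encodes the beta subunit of the vitronectin receptor with alpha V and of the platelet fibrinogen receptor with alpha IIb. It stood at 2.14 RPKM in MYOCD and 0.540 RPKM in WT, a ratio of 3.97 and a log2 change of 1.35. About 139 reads in MYOCD and 40 in WT would lie behind these values. The model AC068234.1 overlaps 51.6% of it on the same strand and itself stood at 0.278 RPKM in MYOCD and 0.133 RPKM in WT, so reads common to both cannot be assigned with certainty.

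The beta partners of alpha V differed in their make-up between the libraries, while ITGAV was level. Leaving out ITGB1, its 4 partner genes summed to 150 RPKM in MYOCD and 240 RPKM in WT. ITGB5 made up 91.2% of that sum in MYOCD and 98.6% in WT. ITGB6 made up 7.06% in MYOCD and 0.978% in WT, and ITGB3 1.42% and 0.225%. ITGB8, whose receptor with alpha V also binds latent TGF-beta, stayed under 1 RPKM, at 0.519 RPKM in MYOCD and 0.376 RPKM in WT. ITGB3, ITGB6 and ITGB8 together came to 13.3 RPKM in MYOCD and 3.26 RPKM in WT, a ratio of 4.08, while ITGB5 was lower by the values above. Most of that sum was ITGB6 alone, at 10.6 RPKM in MYOCD and 2.34 RPKM in WT, so the ratio largely restates its change.

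**Figure D2:**
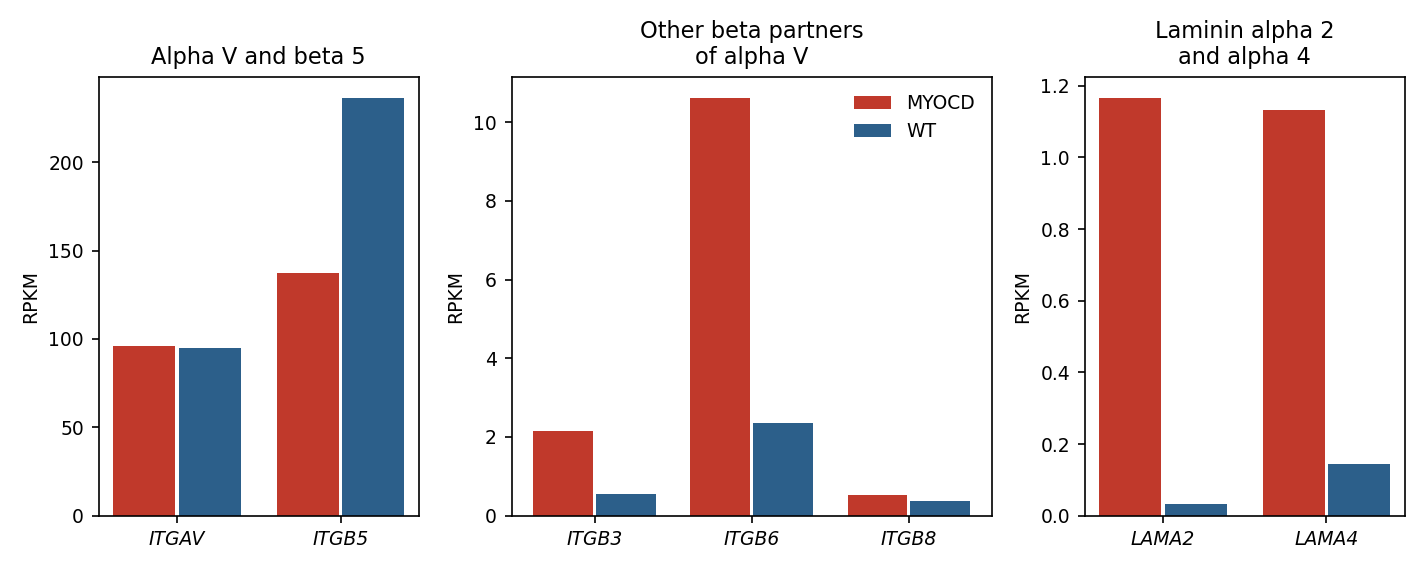
RPKM, on linear axes of different range, of the MYOCD library (left bar of each pair) and the WT library (right bar) for ITGAV and ITGB5, for the less abundant beta partners of alpha V, and for the laminin chains LAMA2 and LAMA4. ITGB6 stands at 10.6 RPKM in MYOCD and 2.34 RPKM in WT and LAMA2 at 1.17 and 0.0330 RPKM, while ITGAV differs little.

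**Figure D3:**
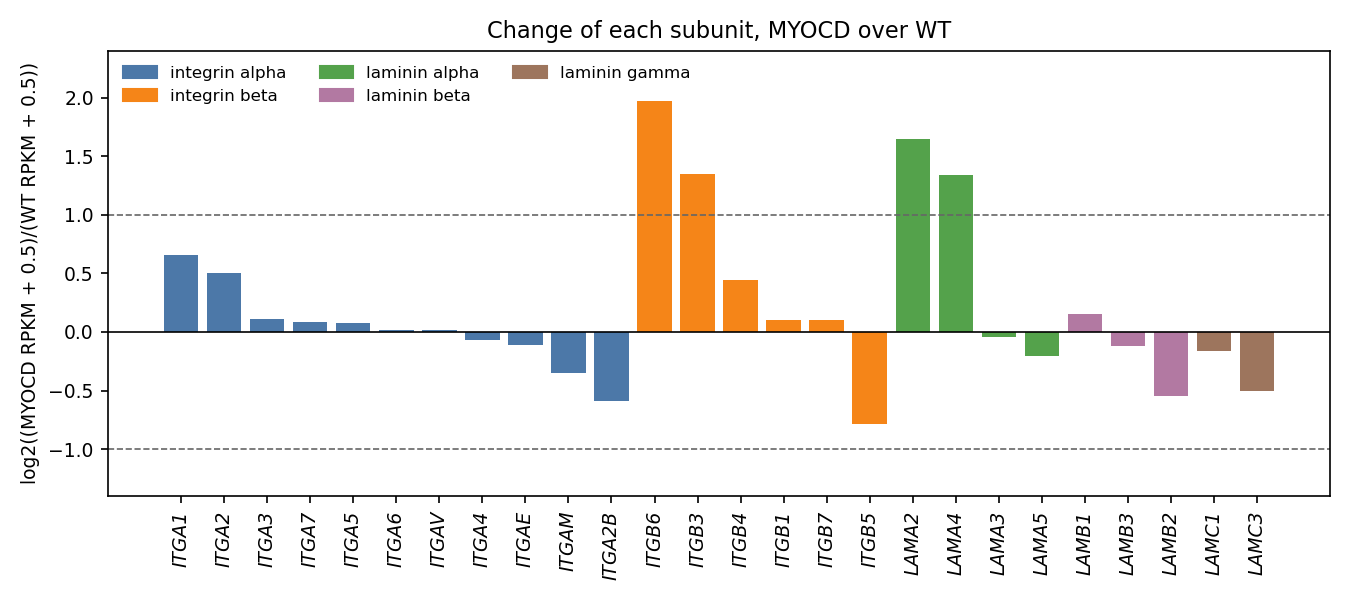
Log2 change, MYOCD over WT with 0.5 RPKM added to each, of the 26 subunits past the filter, grouped and coloured by role; dashed lines mark 2-fold. ITGB6, ITGB3, LAMA2 and LAMA4 lie above the upper line, and no subunit reaches the lower one.

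The abundant laminin chains were those of laminin-511 and laminin-521, the main laminins of adult epithelium, and they lay on both sides of their WT levels by less than 2-fold. LAMA5 had 172 RPKM in MYOCD and 199 RPKM in WT, or 89.2% and 91.2% of alpha chain RPKM. LAMB1 had 127 RPKM in MYOCD and 114 RPKM in WT, and LAMC1 had 89.8 and 100.3 RPKM. LAMB2, the alternative beta chain, had 50.1 RPKM in MYOCD and 73.6 RPKM in WT, a log2 change of -0.55. LAMB1 made up 69.5% of beta chain RPKM in MYOCD and 58.9% in WT, and LAMB2 27.5% and 38.1%.

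LAMA3 and LAMB3, the alpha 3 and beta 3 chains known from epithelium, differed little. LAMA3 stood at 18.3 RPKM in MYOCD and 18.9 RPKM in WT, and LAMB3 at 5.04 and 5.53 RPKM. LAMC3, a rarer gamma chain, had 0.733 RPKM in MYOCD and 1.25 RPKM in WT.

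LAMA2 and LAMA4 appeared at low levels in MYOCD. LAMA2 (ENSG00000196569), at chr6:128883141-129516569 on the plus strand, encodes the alpha chain of the muscle and nerve basement membrane. It stood at 1.17 RPKM in MYOCD and 0.0330 RPKM in WT, a ratio of 35.3 as deposited and a log2 change of 1.64 on the scale with 0.5 RPKM added. About 179 reads in MYOCD and 6 in WT would lie behind them, so the size of the ratio rests on very few WT reads. LAMA4 (ENSG00000112769), at chr6:112108760-112254939 on the minus strand, encodes the alpha chain of vessel, muscle and mesenchymal laminins. It stood at 1.13 RPKM in MYOCD and 0.145 RPKM in WT, a ratio of 7.81 and a log2 change of 1.34, with about 194 and 28 reads behind them. With a pseudocount of 1 RPKM its log2 change was 0.90, under 2-fold. LAMA2 held 0.604% of alpha chain RPKM in MYOCD and 0.0151% in WT, and LAMA4 0.587% and 0.0664%, so LAMA5 and LAMA3 supplied most alpha chain RNA in both. Endothelial, fibroblast and smooth muscle cells are among the sources of these chains in tissue. Of the endothelial markers 4 of 5 were listed at 0 in both libraries and the fifth, PECAM1, stood at 0.139 RPKM in MYOCD and 0.00689 RPKM in WT. The smooth muscle markers summed to 28.8 RPKM in MYOCD and 21.6 RPKM in WT, and their part in the result was not tested. SMTN stood at 18.2 RPKM in MYOCD and 12.1 RPKM in WT, ACTA2 at 8.97 and 8.28 RPKM and MYH11 at 1.24 and 0.830 RPKM. CNN1 stood at 0.328 RPKM in MYOCD and 0.355 RPKM in WT, and DES was listed at 0 in MYOCD and stood at 0.0678 RPKM in WT.

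Set out as complexes, the subunit levels allow a count of pairs and trimers in which every chain has RNA. Of 24 known integrin heterodimers, 15 had both subunits at 1 RPKM or more in MYOCD and 12 in WT. The 3 that crossed this level were alpha 1 beta 1, through ITGA1, and alpha V beta 3 and alpha IIb beta 3, both through ITGB3. ITGA1 was not called higher. In alpha IIb beta 3 the lower chain in MYOCD was ITGA2B, which stood at 1.38 RPKM there and 2.33 RPKM in WT. ITGA1 and ITGB3 were under 1 RPKM in WT and passed that level in MYOCD. Pairs counted with ITGB3 or ITGB7 rest on values made uncertain by the exon overlaps given above. The least abundant subunit of a pair was higher by 2-fold in 2 of the 24, alpha V beta 6 and alpha V beta 3, and lower in 0. The pairs with the most RNA for both subunits were alpha 3 beta 1, with ITGA3 as the lower at 253 RPKM in MYOCD and 235 RPKM in WT, and alpha V beta 1 and alpha V beta 5, with ITGAV as the lower in each. Of 13 laminin trimers 8 had all chains at 1 RPKM or more in MYOCD and 5 in WT. Laminin-211, laminin-221, laminin-411 and laminin-421 crossed that level upward through LAMA2 or LAMA4, and laminin-523 crossed it downward through LAMC3. These are RNA levels of the single chains, and no protein or assembled complex was measured.

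The 11 subunits under 1 RPKM in both libraries were the integrin genes ITGA8, ITGA9, ITGA10, ITGA11, ITGAD, ITGAL, ITGAX, ITGB2 and ITGB8 and the laminin genes LAMA1 and LAMB4. ITGA8 was listed at 0 in both. The integrin genes among them reached at most 0.521 RPKM in MYOCD and 0.739 RPKM in WT, with 7 of 9 lower and 1 of 9 higher in MYOCD in plain value. ITGB2, the beta subunit shared by leukocyte integrins, was at 0.521 RPKM in MYOCD and 0.578 RPKM in WT. Its partners ITGAX, at 0.175 and 0.739 RPKM, and ITGAL, at 0.186 and 0.539 RPKM, had the largest gaps. LAMA1 stood at 0.136 RPKM in MYOCD and 0.0634 RPKM in WT.

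**Figure D4:**
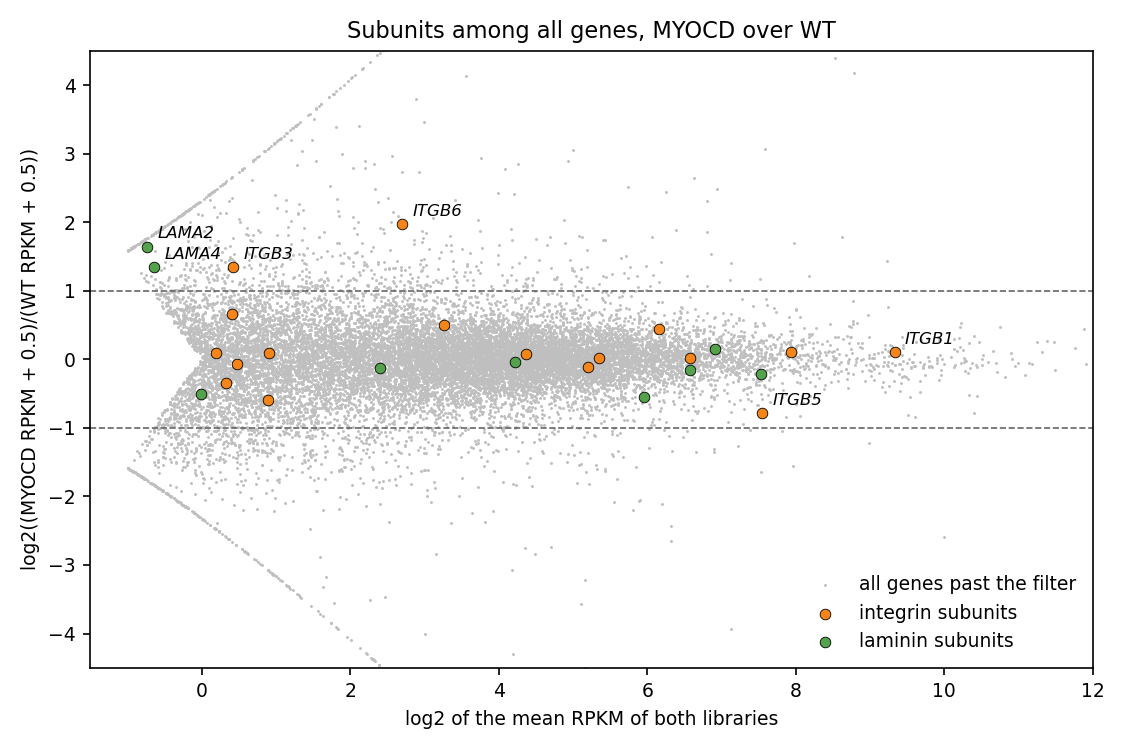
Log2 change, MYOCD over WT with 0.5 RPKM added to each, against the log2 of the mean RPKM, for all genes past the filter (grey), integrin subunits (orange) and laminin subunits (green); dashed lines mark 2-fold, and 342 genes, no subunit among them, lie outside the axes. ITGB6 lies above most genes of like level, ITGB5 below most of them, and LAMA2, LAMA4 and ITGB3 where low levels spread all genes widely.

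Ligand genes of integrins were found on both sides of the threshold. Of 35 listed ligand genes 23 passed the filter, of which 4 were higher and 4 lower, where 5.42% of all genes were higher and 6.35% lower. Their median log2 change was -0.09. Higher were NPNT, COL1A1, TGFBI and MFGE8, and lower were FGA, VTN, ICAM1 and CTGF. NPNT passed the filter through MYOCD alone and ICAM1 through WT alone. With at least 1 RPKM in both libraries 3 ligand genes were higher and 3 lower, where 2.42% and 2.4% of all genes were. NPNT encodes nephronectin, a ligand of alpha 8 beta 1, and had the largest change of the list (log2 change of 3.46), while ITGA8 was listed at 0 in both libraries. VTN encodes vitronectin, the ligand of alpha V with beta 3 or beta 5, and stood at 1.99 RPKM in MYOCD and 7.89 RPKM in WT. MFGE8 encodes an RGD protein that bridges dying cells to alpha V integrins and stood at 107 RPKM in MYOCD and 39.5 RPKM in WT. The gene of latent TGF-beta, TGFB1, the cargo of alpha V beta 6, stood at 105.9 RPKM in MYOCD and 113 RPKM in WT.

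Basement membrane partners of laminins also split. Of 17 genes past the filter, out of 22 listed, 3 were higher and 2 lower, with a median of -0.20. Over all genes 5.42% were higher and 6.35% lower. NPNT passed the filter through MYOCD alone and COL4A3 through WT alone. With at least 1 RPKM in both libraries 2 of the listed genes were higher and 1 lower, where 2.42% and 2.4% of all genes were. COL4A1 and COL4A2, the chains of the common collagen IV network, were higher (log2 changes of 1.69 and 1.34), as was NPNT, which is on both lists. NTN4, whose netrin-4 protein binds laminin gamma chains and loosens laminin networks, was lower, at 20.8 RPKM in MYOCD and 65.7 RPKM in WT, and so was COL4A3 (log2 change of -1.49). The nidogen, perlecan and agrin genes lay under 2-fold. NID1 stood at 1.08 RPKM in MYOCD and 0.682 RPKM in WT, and NID2 at 3.25 and 4.14 RPKM. Perlecan (HSPG2) stood at 35.8 RPKM in MYOCD and 41.3 RPKM in WT, and agrin (AGRN) at 67.3 and 84.5 RPKM.

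Laminin receptors other than integrins held 0 calls among 7 genes past the filter, with a median of -0.10. The most abundant were RPSA at 585 RPKM in MYOCD and 625 RPKM in WT, the syndecan gene SDC1 at 95.8 and 70.7 RPKM, and BCAM, a receptor of the LAMA5 chain, at 54.5 and 50.2 RPKM. Of 10 hemidesmosome and tetraspanin genes past the filter 1 was lower and 0 were higher, with a median of -0.16. Over all genes 5.42% were higher and 6.35% lower. The lower gene of this list was CD82, a tetraspanin that restrains integrin function, at 2.90 RPKM in MYOCD and 6.92 RPKM in WT. CD63 stood at 239 RPKM in MYOCD and 263 RPKM in WT, and CD151, the close partner of alpha 3 beta 1, at 165.3 and 157 RPKM.

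Integrin activators and adhesion linkers had 3 genes higher and 1 lower among 30 past the filter, with a median of 0.12. Over all genes 5.42% were higher and 6.35% lower. TNS1 passed the filter through MYOCD alone and LIMS2 through WT alone. With at least 1 RPKM in both libraries 2 linker genes were higher and 0 lower, where 2.42% and 2.4% of all genes were. TNS1 and TNS4 encode tensins, which bind beta subunit tails. TNS1 stood at 3.98 RPKM in MYOCD and 0.608 RPKM in WT (log2 change of 2.01), and TNS4 at 65.2 and 19.1 RPKM (1.74). FERMT1, the epithelial kindlin that activates integrins, was at the threshold with 17.9 RPKM in MYOCD and 8.70 RPKM in WT, a log2 change of 1.00, and was 0.97 with a pseudocount of 1 RPKM. LIMS2 was the lower one, at 0.290 RPKM in MYOCD and 1.44 RPKM in WT, a change of -0.92 with that pseudocount. Talin (TLN1) stood at 96.5 RPKM in MYOCD and 90.1 RPKM in WT.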

How the data were processed

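Expression was read in 2 libraries, 1 of MYOCD and 1 of WT cells. The authors deposited RPKM values per gene, per the file headers, with 0 further columns of samples. The submitters' processing notes name Bowtie 0.12.2 and the builds mm8, a mouse assembly, and GRCh38.p12, with no role; the counting tool, the annotation and any use of strand were not given in the sources used here. In all, the table held 57979 rows and 56255 symbols, 248 of them on several rows, of which the row with the highest mean was used. Positions and exon unions came from GENCODE 29 (GRCh38), which held 57375 of the identifiers, and promoter windows from RefSeq.

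Whole reads were not recovered: within 0.1 of a whole multiple of the lowest step lay 27.8% of low values in MYOCD and 27.9% in WT, where an even spread gives 20%. The read numbers quoted are thus estimates that assume the exon union as gene length, no counting interval was computed, and no count test was run. The pseudocount was 0.5 RPKM and the filter 1 RPKM in at least 1 library. The calculation was tested on simulated data.

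The subunits, lists, complexes and motifs were chosen with earlier results of these data known; a gene that meets the naming rule is not reported here, and counts, sums and complexes leave it out. The step window, long-gene background and rank of ITGB5 were set after the values were seen, and a pair of other promoter patterns were looked at and not reported. The split of calls by level was not among the planned results. Named were all subunits and, of each list, up to 6 genes past 2-fold, filled up to 3 with the most abundant. Others, among them MFGE8, CTGF, TGFB1, NID1, NID2, HSPG2, AGRN and TLN1, were named after their values were seen. Alternatives changed the pseudocount, filter, scaling or the treatment of repeated symbols. Python 3.11.15, pandas 2.3.3, numpy 2.4.6 and matplotlib 3.10.9 were used.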

Additional observations from a re-analysis of the deposited data

How the results depend on the processing

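No paired analysis was possible because each group holds 1 library, and for the same reason no library could be left out. The scaling alternatives multiplied the MYOCD values, a shift on the log2 scale, smaller for low genes because of the pseudocount, of at most 0.01 (same total RPKM), 0.09 (steady reference genes set to 0, whose 11 members had a median of -0.09 and 0 calls) and 0.00 (trimmed mean). No scaling changed a call of a subunit. The integrin median stayed above 0 in each setting (0.01 to 0.16), and the laminin median below 0 (-0.14 to -0.04). A filter of at least 5 RPKM left 1 integrin and 0 laminin subunits higher, as did one of at least 1 RPKM in both libraries, which was added after seeing the data; a filter on the mean left 0 laminin subunits. With a pseudocount of 1 RPKM, 1 laminin subunit was higher, and 2 laminin trimers in place of 5 had a lowest chain higher by 2-fold. Of the associated lists, the ligand median was -0.25 with at least 5 RPKM, and the basement membrane median was -0.0051 with no filter. Basement membrane genes lower by 2-fold numbered 1 with at least 5 RPKM, with a mean of at least 1 or with 1 RPKM in both libraries. Linker genes lower numbered 2 with a pseudocount of 0.1 RPKM and 0 with one of 1 RPKM and under those 3 filters. Of single genes, called or not, 396 of 400 values kept their side of the threshold, counting only settings in which the gene passed the filter. LAMA4, FERMT1, LIMS2 and ICAM1 (-0.96) fell under 2-fold with a pseudocount of 1 RPKM. Of the called genes, LAMA2, LAMA4, COL4A3, ICAM1 and LIMS2 had values in 8 of 11 settings, the reported one included. ITGB3 and TNS1 had values in 9 and NPNT in 10, and in the remaining settings these genes failed the filter. Of the subunits called higher, LAMA2, LAMA4 and ITGB3 had the fewest estimated reads in WT.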
